A study of Mus musculus with 59 samples.

Results

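The 77 genes described here encode enzymes that build and decorate the sugar chains of the uterine cell surface and its secreted mucins. They were taken by symbol from the 21706 genes of the tables, as every gene whose name begins with Fut, Galnt, St3gal, St6gal, St8sia, B3gnt, B4galnt, Gcnt or Chst in the form used for these enzyme families. The set held 17 Galnt, 14 Chst, 9 B3gnt, 8 Fut, 6 St3gal, 6 St6galnac, 6 St8sia, 5 Gcnt, 4 B4galnt and 2 St6gal genes. RNA was sequenced from 59 uterine samples of 29 mated mice. Knockout females (epiERα-/-, Esr1f/-Wnt7aCre/+) had 1 floxed and 1 null copy of Esr1, which encodes oestrogen receptor alpha, together with a Cre driven from Wnt7a that is active in uterine epithelium. Control females (Esr1f/-) carried the same floxed and null alleles without Cre, so all animals had at most a single working Esr1 allele and no fully wild-type female was included. The females, virgin before mating and about 2 to 6 months of age, were paired with stud males of working Esr1, and tissue was collected at D3.5 or D0.5, where D0.5 is the day of the vaginal plug. LE is luminal epithelium scraped out after dispase digestion (6 knockout and 4 control libraries at D3.5, 7 knockout and 9 control libraries at D0.5). DU is a piece of the digested uterus (3 knockout and 3 control at D3.5, 3 knockout and 4 control at D0.5), and U is an undigested piece of uterus (5 knockout and 5 control at D3.5, 4 knockout and 6 control at D0.5).

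Mucin-type O-glycans start when a polypeptide GalNAc transferase of the Galnt family places N-acetylgalactosamine (GalNAc) on serine or threonine. Gcnt enzymes branch the chain, B3gnt enzymes extend it with N-acetylglucosamine (GlcNAc), and sialyltransferases, fucosyltransferases, B4galnt GalNAc transferases and sulfotransferases cap it. In the uterus this glycan coat covers the luminal surface that the blastocyst meets, and fucosylated and sulfated epitopes, sialylated carriers and mucins are known to change there between the oestrogen-dominated plug day and the receptive phase.

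Promoter windows, from 250 bases before to 50 bases after an annotated start, were available in the RefSeq table of build GRCm38.p6 for 57 of the 77 genes (75 windows). The 5 windows printed here belong to 3 sialyltransferase genes that rose and 2 further genes that fell in knockout LE at D0.5. Capitals mark the GC box GGGCGG and the hexamer AGGTCA, a single arm of the oestrogen response element, each on either strand.
St3gal4, chr9:35116815-35117114, minus strand: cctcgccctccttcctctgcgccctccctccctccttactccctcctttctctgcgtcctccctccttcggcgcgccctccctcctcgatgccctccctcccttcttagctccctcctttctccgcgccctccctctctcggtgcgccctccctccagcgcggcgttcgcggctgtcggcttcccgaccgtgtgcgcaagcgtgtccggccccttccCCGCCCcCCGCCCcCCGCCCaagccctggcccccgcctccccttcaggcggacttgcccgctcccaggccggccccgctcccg
St3gal6, chr16:58523377-58523676, minus strand: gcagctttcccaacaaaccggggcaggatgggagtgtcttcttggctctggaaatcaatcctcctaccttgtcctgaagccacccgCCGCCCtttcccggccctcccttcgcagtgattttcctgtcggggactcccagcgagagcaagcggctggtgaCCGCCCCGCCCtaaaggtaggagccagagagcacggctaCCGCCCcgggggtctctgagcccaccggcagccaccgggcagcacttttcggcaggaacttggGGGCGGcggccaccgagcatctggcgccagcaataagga
St6gal1, chr16:23290220-23290519, plus strand: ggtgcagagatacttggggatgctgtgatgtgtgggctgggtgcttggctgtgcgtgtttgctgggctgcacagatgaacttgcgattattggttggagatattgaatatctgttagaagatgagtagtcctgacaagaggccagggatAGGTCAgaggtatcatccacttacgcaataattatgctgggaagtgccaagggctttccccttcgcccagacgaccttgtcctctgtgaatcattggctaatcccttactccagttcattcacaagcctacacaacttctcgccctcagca
Chst8, chr7:34812662-34812961, minus strand: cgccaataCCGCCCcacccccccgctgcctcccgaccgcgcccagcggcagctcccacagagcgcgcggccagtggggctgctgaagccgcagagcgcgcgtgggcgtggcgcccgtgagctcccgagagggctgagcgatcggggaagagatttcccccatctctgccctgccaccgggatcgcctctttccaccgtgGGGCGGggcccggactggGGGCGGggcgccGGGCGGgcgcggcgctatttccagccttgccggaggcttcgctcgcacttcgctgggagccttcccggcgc
B3gnt3, chr8:71701751-71702050, minus strand: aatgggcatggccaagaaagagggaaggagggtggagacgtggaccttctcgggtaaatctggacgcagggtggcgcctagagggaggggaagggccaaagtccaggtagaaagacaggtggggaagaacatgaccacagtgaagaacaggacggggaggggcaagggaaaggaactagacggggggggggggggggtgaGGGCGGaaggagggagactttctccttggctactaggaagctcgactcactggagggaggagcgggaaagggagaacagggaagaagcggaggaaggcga

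These windows held 3 GC boxes in St3gal4, 5 in St3gal6 (2 of which overlap by 1 base), 4 in Chst8, 1 in B3gnt3 and none in the St6gal1 window, which held 1 AGGTCA hexamer, starting 101 bases before the start site. The GC box was present in 47 of the 75 member windows (62.7%) and in 35.7% of all 32841 windows of the table. The hexamer was present in 4 member windows (5.33%) and in 16.3% of all windows. The full palindrome of the oestrogen response element (GGTCA and TGACC with any 3 bases between) was found in no member window, against 0.07% of all windows, and that of the progesterone response element (AGAACA and TGTTCT with any 3 bases between) in no member window, against 0.00913% of all windows. St3gal6 has 1 further window and St6gal1 has 2 further windows in the table, which are not shown. The windows are short, and binding was not measured.

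Total estimated counts per library were 13468447 to 80312395 in LE, 14053781 to 46214387 in DU and 11305113 to 108002365 in U. Esr1 was measured at 34.8 to 62.9 CPM (counts per 1000000, TMM-scaled) in knockout LE at D0.5, against 110 to 273 CPM in control LE (two-sided exact permutation test of mean log2 CPM, p = 0.000175), and at 52.1 to 73.2 CPM in knockout LE at D3.5, against 104 to 162 CPM in control LE (exact permutation p = 0.00952). Esr1 was also lower without overlap in knockout DU at D3.5 (144 to 186 CPM in knockout, 206 to 229 CPM in controls; exact permutation p = 0.1, the smallest 3 against 3 allow), in knockout DU at D0.5 (139 to 150 CPM in knockout, 194 to 281 CPM in controls; exact permutation p = 0.0571) and in knockout U at D0.5 (111 to 128 CPM in knockout, 131 to 299 CPM in controls; exact permutation p = 0.00952). In U at D3.5 the groups overlapped (123 to 212 CPM in knockout and 135 to 195 CPM in control, exact permutation p = 0.254), and the U library labelled knockout mouse 33 had 212 CPM, above every control. The LE label held against its markers: 9 of 9 epithelial markers were higher in LE than in U, and 8 of 8 stromal and 6 of 6 smooth muscle markers were lower. Neutrophil markers moved with genotype in LE at D0.5, where their summed level was 934 to 3472 CPM in knockout and 3.64 to 400 CPM in controls, 6 of 6 tested markers rose, and the epithelial markers summed to 3765 to 6766 CPM in knockout and 7495 to 14772 CPM in controls. Of 4 gland markers, 3 rose in knockout LE on each day (summed level 55.2 to 167 CPM in knockout and 3.01 to 7.89 CPM in control at D3.5; 30.1 to 116 CPM in knockout and 0.87 to 24 CPM in control at D0.5). Among 6 knockout LE libraries at D3.5, those of mice 35, 36 and 37 stood apart from those of mice 31, 32 and 34 in several members. No label sets mice 35, 36 and 37 apart, and they were picked after their values in the members were seen. Values without them are given beside D3.5 calls that changed then. They show how calls depend on these libraries, and their adjusted p values are no separate test. In bulk tissue, fewer cells of a type and less RNA per cell cannot be told apart.

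Fut2 is an alpha1,2-fucosyltransferase that makes the H antigen. Averaged over the 4 groups of each tissue, it had the highest level per transcript length. The mean was 175 TPM (transcripts per 1000000) in LE, 79.4 TPM in DU and 70.1 TPM in U. It was followed in LE by Gcnt2, which branches poly-N-acetyllactosamine (75.6 TPM), St3gal1, which caps core 1 O-glycans with alpha2,3-sialic acid (73.3 TPM), St6galnac2, which adds alpha2,6-sialic acid to the O-linked GalNAc (67.2 TPM), and Galnt1, a broadly expressed chain initiator (57.3 TPM). St3gal1 and Galnt1 were also among the 5 highest in DU and U, together with St3gal4. The first rank of Fut2 did not hold within every group. In knockout LE at D3.5 Fut2 had 15.4 to 78.5 TPM, against 54.7 to 121 TPM for Gcnt2. In U at D3.5 Fut2 had 7.03 to 31.6 TPM over both genotypes, against 39.3 to 68 TPM for St3gal1. Of the 77 genes, 52 had a mean of at least 1 TPM in LE, 58 in DU and 57 in U. In LE 71 members passed the filter on low counts and were tested; B3gnt4, Chst5, Chst13, Fut7, Galnt9 and Galnt14 did not. Fut7, which makes sialyl Lewis x in leukocytes, was thus not tested in LE.

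In knockout LE at D0.5 the sialyltransferase genes St3gal4, St3gal6, St6gal1 and St6galnac2 rose, the extension enzymes B3gnt3 and B3gnt8 fell, and the sulfotransferase genes moved in both directions, with Chst2, Chst9 and Chst15 higher and Chst8 lower. Of the 71 members tested, 26 passed an adjusted p of 0.05 (15 higher, 11 lower), against 23.6% of all 15601 genes tested (10.9% higher, 12.6% lower), by the quasi-likelihood test of edgeR with Benjamini-Hochberg adjustment, which also gives every adjusted p below. The median log2 fold change was 0.23 over the members and −0.01 over all genes. Of 5 macrophage markers tested in this comparison, 4 were called higher and 1 lower (median log2 fold change 1.56). Of 9 epithelial markers, 6 were called lower and none higher. The part of the neutrophil, macrophage, gland and epithelial signal in these member counts was not tested.

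**Figure D1:**
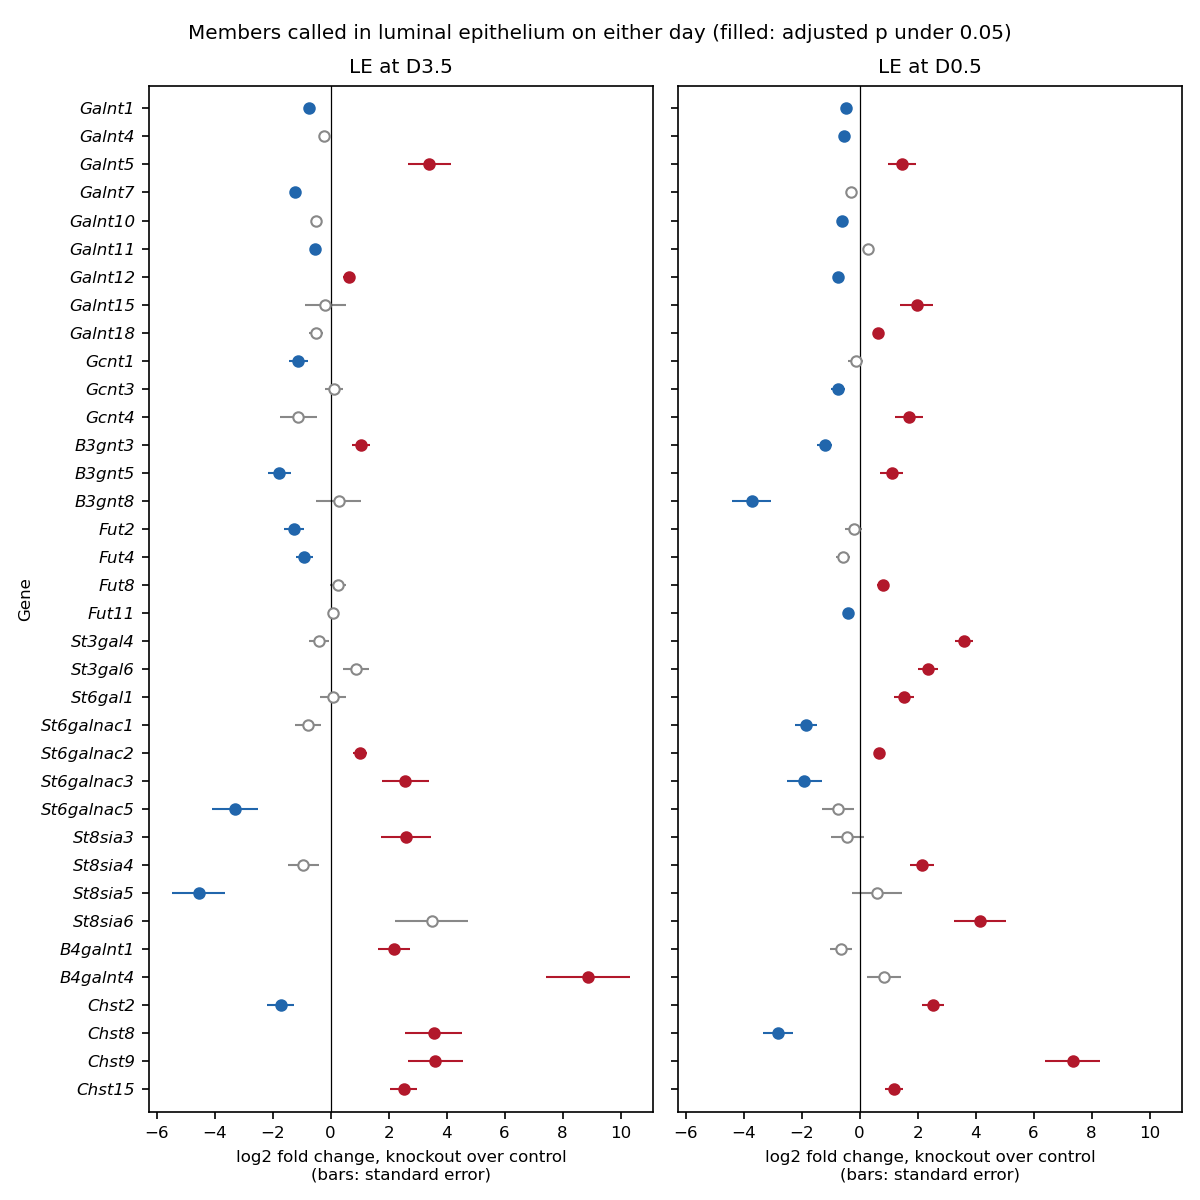
Log2 fold change of knockout over control luminal epithelium (LE) with standard error on the x axis, for the 36 members called on either day (rows), at D3.5 on the left and D0.5 on the right. Filled red points were higher and filled blue points lower at an adjusted p under 0.05, and open points were not called. The fitted values of Chst9 at D0.5 and B4galnt4 at D3.5 rest on control groups with 1 and 0 counts.

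Of 20 sialyltransferase genes, 6 rose and 2 fell. Summed over the family and set per transcript length, the St3gal genes came to 211 ± 15.1 TPM in 7 knockout and 93.4 ± 24.4 TPM in 9 control libraries (SD), and the St6gal genes to 99.2 ± 16.6 TPM in knockout and 33.9 ± 14.1 TPM in control libraries. St3gal4, which adds alpha2,3-sialic acid to lactosamine ends, had 22.1 to 65.5 CPM (median 41.2) in 7 knockout libraries, against 1.06 to 7.16 CPM (median 3.23) in 9 control libraries. No control library reached the lowest knockout library, and the difference was 3.60 ± 0.30 on the log2 scale (SE), a 12.1-fold rise (adjusted p = 3.09e-09). St3gal6, with the same linkage, had 34.6 to 49.8 CPM (median 38.2) in knockout and 2.52 to 21.7 CPM (median 5.53) in control libraries, also without overlap (log2 2.36 ± 0.34, adjusted p = 9.95e-06). St6gal1, which makes the alpha2,6-linked cap of N-glycans, had 313 to 411 CPM (median 391) in knockout and 28.7 to 200 CPM (median 129) in control libraries. Its groups did not overlap, the lowest control value belonged to mouse 1, and the rise was 2.88-fold (log2 1.53 ± 0.35, adjusted p = 0.00176). St6galnac2 rose by a smaller factor, with a mean of 264 ± 58.4 CPM over 7 knockout libraries, against 167 ± 37.1 CPM over 9 controls (SD), and the ranges overlapped (log2 0.66 ± 0.18, adjusted p = 0.00799). The alpha2,8-sialyltransferases St8sia4, a polysialic acid synthase, and St8sia6 rose at low levels. St8sia4 had 2.15 to 10.1 CPM (median 4.57) in knockout and 0.235 to 2.25 CPM (median 1.11) in control libraries (log2 2.16 ± 0.42, adjusted p = 0.000375), and St8sia6 had 0.591 to 14.9 CPM (median 2.65) in knockout and 0 to 1.39 CPM (median 0.191) in control libraries (log2 4.15 ± 0.91, adjusted p = 0.00133). St8sia6 was uneven within the knockout, where 3 libraries lay at 12.6, 14.9 and 14.7 CPM and the other 4 at or below 2.65 CPM. The members that fell were St6galnac1, the sialyl-Tn synthase, and St6galnac3. St6galnac1 had 0.727 to 2.17 CPM (median 1.29) in knockout and 2.14 to 7.36 CPM (median 5.21) in control libraries, with an overlap at the edge only (log2 −1.85 ± 0.37, adjusted p = 0.000558).

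**Figure D2:**
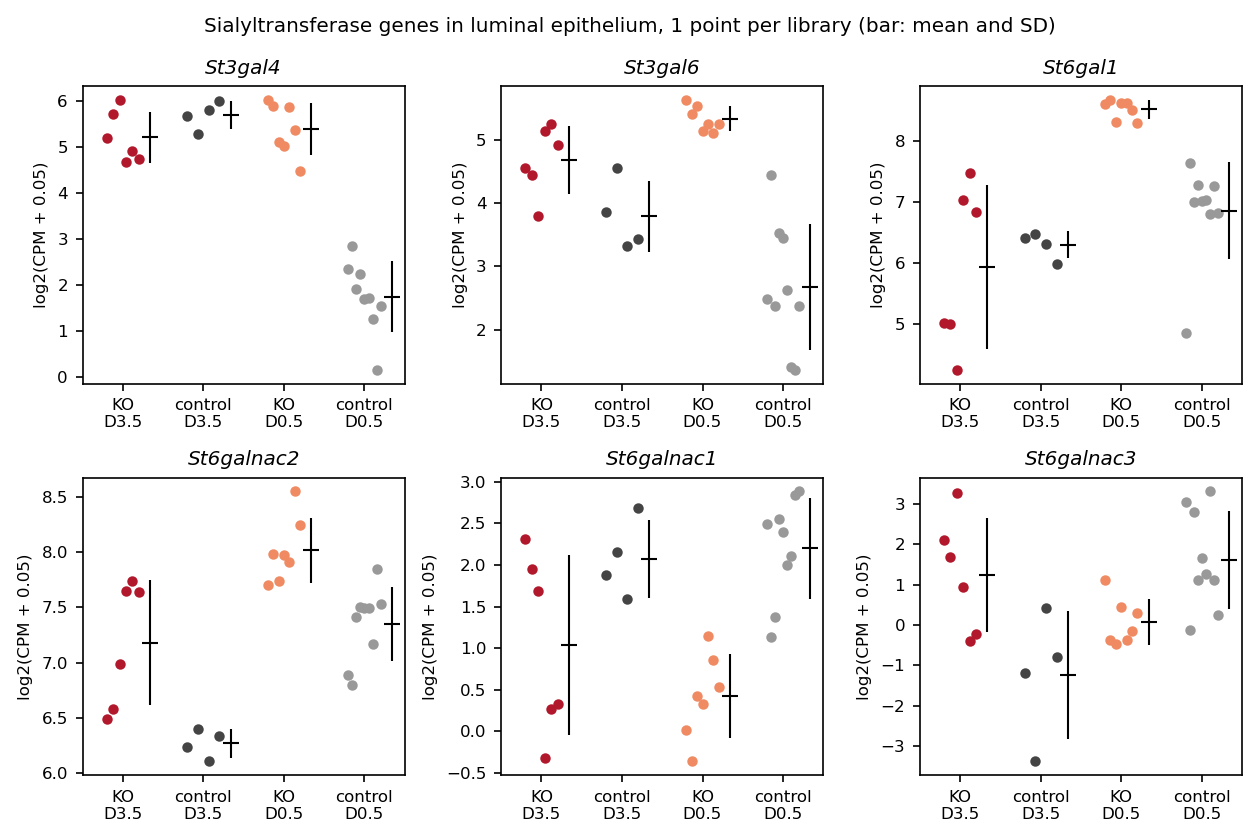
Level of 6 sialyltransferase genes in every luminal epithelium library, as log2(CPM + 0.05) on the y axis, with knockout (KO) left of control at D3.5 and then at D0.5; bars show the mean and SD. St3gal4, St3gal6 and St6gal1 do not overlap between genotypes at D0.5, while at D3.5 the knockout points of St6gal1 lie on both sides of the control points.

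Enzymes that start and extend chains moved in both directions. Of 15 Galnt genes tested, 4 fell (Galnt1, Galnt4, Galnt10, Galnt12) and 3 rose (Galnt5, Galnt15, Galnt18), with folds of 1.40 for Galnt1 and 1.70 for Galnt12 at the limits of the falls. Galnt5 had 6.77 to 11.3 CPM in knockout and 0.75 to 5.77 CPM in controls and was the only called Galnt gene whose groups did not overlap (log2 1.46 ± 0.47, adjusted p = 0.0231). B3gnt3, which extends core 1 O-glycans and with them builds the scaffold for sulfated sialyl Lewis x, had 39.8 to 134 CPM (median 77.1) in knockout and 142 to 253 CPM (median 172) in control libraries. The groups did not overlap, and B3gnt3 fell by 1.21 ± 0.25 on the log2 scale (adjusted p = 0.000707). B3gnt8 had 0 to 1.55 CPM (median 0.415) in knockout and 2.28 to 11.3 CPM (median 7.04) in control libraries, without overlap (log2 −3.72 ± 0.68, adjusted p = 0.000197). Exons of B3gnt8 overlap those of Bckdha on the other strand, and no source used here says whether reads were counted by strand. Of the 5 Gcnt genes Gcnt3 fell and Gcnt4 rose, and of the 7 Fut genes tested Fut11 fell and Fut8, the core fucosyltransferase of N-glycans, rose. The groups of Fut11 overlapped (15.9 to 33.1 CPM in knockout and 22 to 39.1 CPM in controls). Its call was lost with DESeq2 (size factors, and its own test), without a filter, on TPM values and with only the groups compared. Fut2 had 399 to 598 CPM in knockout and 364 to 1048 CPM in controls at this day and was not called.

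Of 12 Chst genes tested 3 rose and 1 fell. Chst2, which sulfates GlcNAc at carbon 6, had 5.76 to 17.9 CPM (median 9.69) in knockout and 0.293 to 4.9 CPM (median 1.37) in control libraries. The groups did not overlap (log2 2.53 ± 0.39, adjusted p = 2.73e-05). Chst15, which adds a further sulfate to chondroitin sulfate, had 18.8 to 59.1 CPM (median 24.6) in knockout and 2.64 to 20 CPM (median 14) in control libraries, and its groups overlapped (log2 1.18 ± 0.32, adjusted p = 0.00764). Chst8 and Chst9 both transfer sulfate to carbon 4 of terminal GalNAc, as on pituitary glycoprotein hormones, and they moved in opposite directions. Chst8 had 0.349 to 12.4 CPM (median 6.58) in knockout and 9.98 to 87 CPM (median 39.2) in control libraries, with an overlap of single libraries (log2 −2.81 ± 0.51, adjusted p = 0.000174). Chst9 was detected in each of the 7 knockout libraries (0.21 to 3.58 CPM) and in 1 of 9 control libraries with a single count. The ratio of its pooled levels was 360, with a 95% counting interval of 64 to 14278 (exact binomial, counting error only; adjusted p = 2.45e-06). The 12 members called with the smallest adjusted p and at least a 2-fold change kept their calls under every alternative that tested them.

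Of the members called at D0.5, 11 were called again in knockout LE at D3.5, and others were called only there. Capping genes that control LE carried at that day, St8sia5, St6galnac5, Chst2 and Fut2, and the extension gene B3gnt5 fell, while Chst15, Chst8, Chst9, B4galnt1, B4galnt4 and St6galnac2 were higher. Of 71 members, 21 were called (11 higher, 10 lower), against 13.5% of all genes tested (7.79% higher, 5.7% lower). Without the libraries of mice 35, 36 and 37, 12 members were called (4 higher, 8 lower), against 7.18% of all genes (4.08% higher, 3.11% lower), and 9 of the 12 were among the 21 (B3gnt5, B4galnt4, Chst2, Chst15, Fut2, Galnt7, St6galnac3, St6galnac5 and St8sia5). Chst11 (log2 −1.95), St6gal1 and St6gal2 were called only without these libraries. Calls lost then included those of Galnt11 (log2 −0.42), Gcnt1 (log2 −0.84) and St8sia3 (log2 2.57). No stromal or erythroid marker was called in this comparison, where the median log2 fold changes of these lists were −0.81 and −2.09 in that order, and their part in the result was not tested. On TPM values the median of all genes moved by 0.38 (log2) in this comparison, so directions are given relative to the TMM-scaled counts; no named member changed sign on TPM values.

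Galnt7, which adds GalNAc beside existing GalNAc residues, had 21.3 to 32.1 CPM (median 25.9) in 6 knockout libraries, against 57.1, 36.1, 60.6 and 88.2 CPM in 4 control libraries. The groups did not overlap (log2 −1.22 ± 0.20, adjusted p = 0.000116), and the value without mice 35, 36 and 37 was −1.28. B3gnt5, the lactotriaosylceramide synthase that starts lacto-series glycolipids, had 7.1 to 60.8 CPM (median 31.1) in knockout, against 152, 110, 89.4 and 98.7 CPM in controls. It fell by 1.77 ± 0.40 on the log2 scale without overlap (adjusted p = 0.00302). St8sia5, an alpha2,8-sialyltransferase of gangliosides, had 0 to 1.4 CPM (median 0.342) in knockout, against 12, 10.2, 13.8 and 16.2 CPM in controls, without overlap (log2 −4.55 ± 0.91, adjusted p = 0.00104). St6galnac5, another ganglioside sialyltransferase, had 0 to 0.655 CPM (median 0.104) in knockout, against 0.915, 2.02, 1.7 and 3.64 CPM in controls. It was also without overlap (log2 −3.31 ± 0.80, adjusted p = 0.006), and its call was lost with limma voom and on TPM values.

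Chst2 had 3.36 to 12.7 CPM (median 5.03) in knockout, against 18.1, 15.1, 25.7 and 29.3 CPM in controls. No knockout library reached the lowest control (log2 −1.73 ± 0.48, adjusted p = 0.0151), although the call was lost without control mouse 16 (highest adjusted p = 0.0528 over the alternatives). Fut2 had 19.4 to 102 CPM (median 58.7) in knockout, against 97.6, 116, 144 and 215 CPM in controls. Knockout mouse 36, at 102 CPM, overlapped the controls, and the fall was 2.4-fold (log2 −1.26 ± 0.35, adjusted p = 0.016). It was 4.67-fold without mice 35, 36 and 37, a choice of libraries made with member values seen. The call of Fut2 was lost in 3 of 17 alternatives, on TPM values, with only the groups compared and without control mouse 16 (highest adjusted p = 0.0866). Fut4, which makes Lewis x, also fell, with 24 to 32.3 CPM in knockout and 36 to 67.9 CPM in controls, without overlap (log2 −0.91 ± 0.30, adjusted p = 0.0403), and its call was lost on TPM values and without mice 35, 36 and 37 (log2 −0.82, adjusted p = 0.229).

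Chst15 had 10.6 to 23 CPM (median 19) in knockout, against 5.45, 3.94, 1.06 and 1.67 CPM in controls. The groups did not overlap, and Chst15 rose 5.73-fold (log2 2.52 ± 0.46, adjusted p = 0.000469). B4galnt4, which adds a beta1,4-linked GalNAc to GlcNAc and so makes the acceptor used by Chst8 and Chst9, was detected in every knockout library (0.356 to 6.56 CPM) and had 0 counts in all 4 control libraries. Its pooled level was at least 64.9-fold higher in knockout LE, taking 3 counts over the control group as the floor (adjusted p = 0.000178). Chst8 had 0.402 to 1.86 CPM (median 0.912) in knockout, against 0, 0.275, 0 and 0 CPM in controls, and Chst9 had 0.662 to 8.63 CPM (median 4.41) in knockout, against 0.872, 0, 0.461 and 0 CPM in controls. Chst8 did not overlap and Chst9 did (adjusted p = 0.0146 and 0.0098), and both calls were lost without mice 35, 36 and 37 (adjusted p = 0.072 and 0.112) and with only the groups compared. The call of Chst8 was lost in 6 of 17 alternatives, the others being limma voom, TPM values and leaving out control mouse 11 or 15 (highest adjusted p = 0.361). B4galnt1, the GM2/GD2 synthase, had 56.2, 62.6 and 20.7 CPM in knockout mice 35, 36 and 37 and 7.08, 9.7 and 13.1 CPM in knockout mice 31, 32 and 34, against 8.59, 10.3, 1.38 and 4.55 CPM in controls. Its rise (log2 2.18 ± 0.55, adjusted p = 0.00779) was 0.70 without mice 35, 36 and 37 and was then not called, and Galnt5 behaved alike (log2 3.40, and 1.43 without them, not called). The calls of B4galnt1 and Galnt5 were also lost with limma voom, and that of B4galnt1 with only the groups compared.

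**Figure D3:**
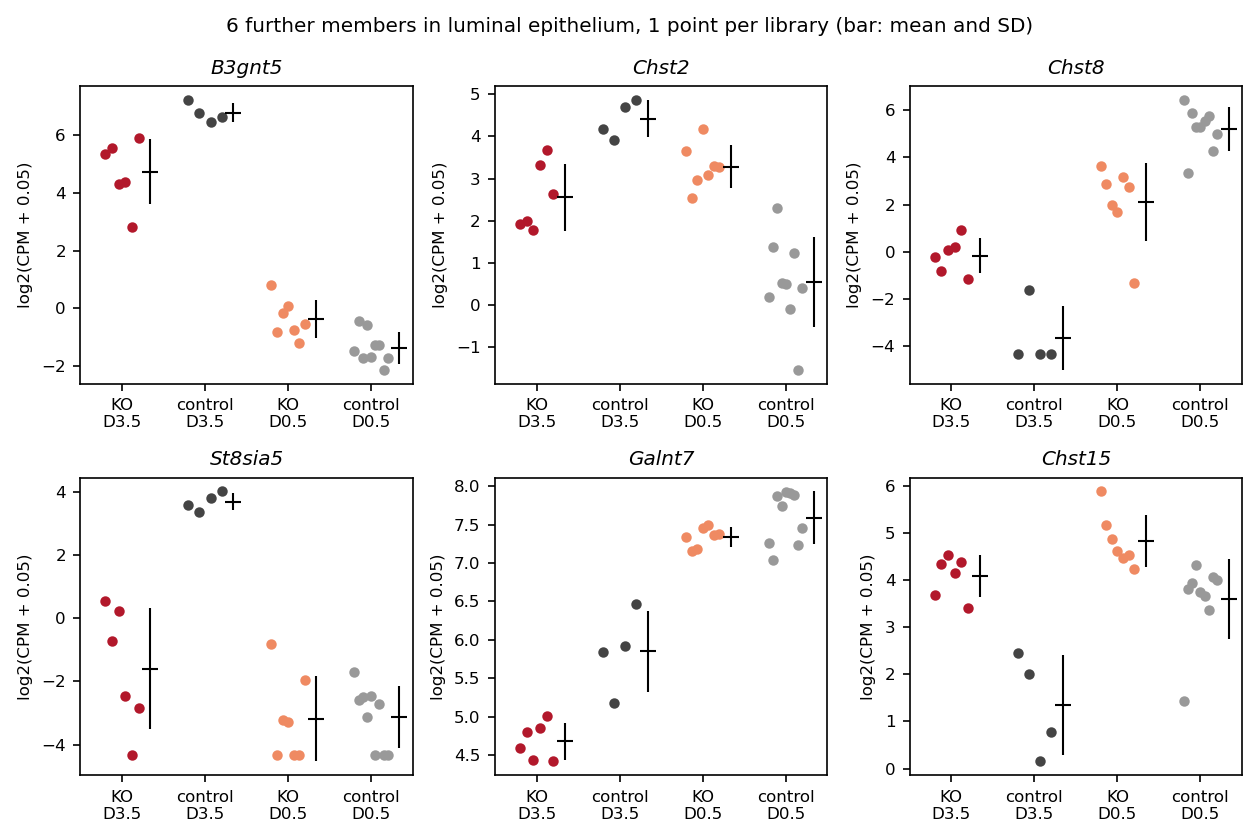
Level of 6 further members in every luminal epithelium library, as log2(CPM + 0.05) on the y axis, with knockout (KO) left of control at D3.5 and then at D0.5; bars show the mean and SD. The knockout points of B3gnt5, Chst2, St8sia5 and Galnt7 lie below every control at D3.5, and those of Chst15 lie above every control there.

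The alpha2,6-sialyltransferase genes St6gal1, St6gal2 and St6galnac2 were among the members that showed the split among the D3.5 knockout libraries. St6gal1 had 131, 178 and 114 CPM in knockout mice 35, 36 and 37 and 32.2, 32.1 and 18.9 CPM in knockout mice 31, 32 and 34, against 85.4, 89.1, 79.6 and 63.5 CPM in controls. St6gal2, the other enzyme with this linkage and a gene singled out after its values were seen, had 0.308, 0 and 0 CPM in knockout mice 35, 36 and 37 and 19.8, 17.1 and 19.1 CPM in knockout mice 31, 32 and 34, against 1.09, 0.642, 1.11 and 8.27 CPM in controls. The same 3 libraries that lay above the controls for St6gal1 lay below them for St6gal2. Neither gene was called over all 6 knockout libraries. Without mice 35, 36 and 37, a choice made with these values seen, both were called (log2 −1.48 for St6gal1 and 2.79 for St6gal2). St6galnac2 had 201, 213 and 199 CPM in mice 35, 36 and 37 and 90, 95.8 and 127 CPM in mice 31, 32 and 34, all above the controls at 75.2, 84.2, 68.7 and 80.8 CPM (log2 1.00 ± 0.24 over 6 libraries, adjusted p = 0.00584). Without mice 35, 36 and 37 the log2 fold change of St6galnac2 was 0.46 and was not called (adjusted p = 0.262).

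Of 36 members called in LE on either day, 11 were called on both. Chst9, Chst15, Galnt5 and St6galnac2 were higher and Galnt1 was lower in the knockout on both days, while B3gnt3, B3gnt5, Chst2, Chst8, Galnt12 and St6galnac3 changed direction. The D0.5 rise of B3gnt5 was at a low level and with overlap (0.381 to 1.71 CPM in knockout and 0.176 to 0.693 CPM in controls). Its D0.5 call was lost without a filter, with limma voom and on TPM values, and that of St6galnac3 on TPM values. The call of Galnt1 was lost on TPM values on both days. At D3.5 the calls of B3gnt3, Galnt12 and St6galnac3 were lost with limma voom and with only the groups compared. That of Galnt12 at D3.5 was also lost without a filter, and that of St6galnac3 on TPM values. Without mice 35, 36 and 37, only B3gnt5, Chst2, Chst15 and St6galnac3 of these 11 were called at D3.5; the log2 fold change was then 0.30 for B3gnt3 (adjusted p = 0.646), 0.40 for Galnt12 (adjusted p = 0.371) and −0.53 for Galnt1 (adjusted p = 0.0582). The difference between the knockout effects on the 2 days was itself tested, and 19 of 71 members passed (9 with a higher effect at D3.5, 10 with a lower one), against 16.5% of all genes (9.52% higher, 6.99% lower). St3gal4 had the smallest adjusted p. The difference was −4.01 ± 0.45 on the log2 scale (adjusted p = 9.71e-07), as its 12.1-fold rise at D0.5 stood beside overlapping groups at D3.5 (25.4 to 65 CPM in knockout, and 51.1, 39, 56.1 and 63.7 CPM in controls). For Chst2 it was −4.26 ± 0.62 (adjusted p = 2.68e-05), for Chst8 6.37 ± 1.08 (adjusted p = 0.00017), for B3gnt3 2.25 ± 0.41 (adjusted p = 0.000384), for Galnt12 1.38 ± 0.26 (adjusted p = 0.000511) and for B3gnt5 −2.88 ± 0.56 (adjusted p = 0.000704). The knockout effects on the 2 days come from separate mice.

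Between D3.5 and D0.5, control LE changed in 45 of 71 members (23 higher, 22 lower at D3.5), against 44% of all genes (21.2% higher, 22.8% lower). B3gnt5 rose most clearly, with 152, 110, 89.4 and 98.7 CPM at D3.5 and 0.176 to 0.693 CPM (median 0.31) at D0.5, without overlap (log2 8.18 ± 0.43, adjusted p = 8.63e-14). St3gal4 rose as well (51.1, 39, 56.1 and 63.7 CPM at D3.5, and 1.06 to 7.16 CPM at D0.5; log2 3.83 ± 0.32, adjusted p = 3.5e-10), as did Galnt1, Galnt11 and Chst10, the HNK-1 sulfotransferase, with log2 changes of 1.52, 1.99 and 6.54. Galnt3, an initiator of mucin O-glycans, fell to 2.38 to 7.46 CPM at D3.5, against 103 to 239 CPM at D0.5 (log2 −4.75 ± 0.39, adjusted p = 2.18e-10). In knockout LE 36 of 71 members changed between the days (15 higher, 21 lower at D3.5), against 41.6% of all genes (21.4% higher, 20.2% lower). Galnt3, Galnt7, Fut9, which makes Lewis x, and Fut2 fell, with log2 changes of −4.17, −2.65, −2.63 and −3.08, and B3gnt5 and Galnt1 rose, with log2 changes of 5.30 and 1.24, and the libraries of the 2 days did not overlap for any of these 6 genes. In knockout LE St3gal4 had 25.4 to 65 CPM (median 33.5) at D3.5 and 22.1 to 65.5 CPM (median 41.2) at D0.5, and Chst2 had 3.36 to 12.7 CPM at D3.5 and 5.76 to 17.9 CPM at D0.5; neither was called. Both genotypes shared 26 day changes of the same direction, and St6galnac3 and St8sia4 were called in opposite directions. The control call of St8sia4 was lost without a filter, with limma voom and with only the groups compared. Its knockout call was lost without mice 35, 36 and 37. The calls of St6galnac3 were lost on TPM values in both genotypes, and that in knockout also with limma voom.

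**Figure D4:**
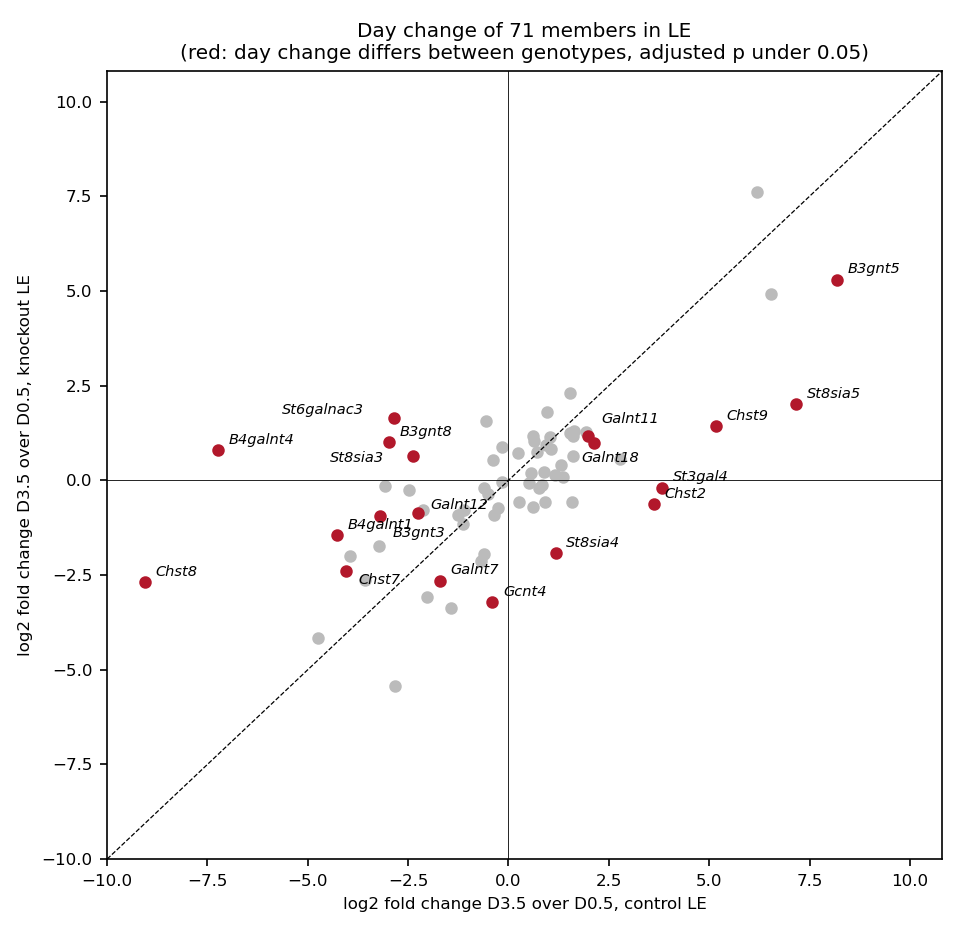
Log2 fold change of D3.5 over D0.5 in knockout luminal epithelium (y axis) against control luminal epithelium (x axis) for the 71 members tested, with equal change on the dashed line. The 19 members in red differed between genotypes at an adjusted p under 0.05; St3gal4 lies near 0 on the knockout axis and near 4 on the control axis. Fitted changes of Chst8, Chst9 and B4galnt4 rest on groups with few or no counts.

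In pieces of uterus fewer members were called. In U at D0.5, 6 of 74 members tested were called (4 higher, 2 lower), against 4.98% of all genes (2.02% higher, 2.96% lower). Cell type markers moved with genotype there as well. Of 9 epithelial markers 3 were called lower, and 3 of 5 gland and 3 of 7 neutrophil markers were called higher. Their part in the member counts of U was not tested. St3gal6 had 40.8, 49.2, 52.2 and 34.4 CPM in knockout and 17.2 to 29.7 CPM (median 25.1) in control libraries, and St3gal4 had 52.5, 43.9, 41 and 37.5 CPM in knockout and 17.7 to 35.7 CPM (median 26.4) in control libraries. Neither gene overlapped between the groups (St3gal6 log2 0.83 ± 0.16, adjusted p = 0.00394; St3gal4 log2 0.72 ± 0.17, adjusted p = 0.0131). The call of St3gal4 was lost on TPM values (adjusted p = 0.754) and with only the groups compared, which also ended that of Chst2 (adjusted p = 0.0509). Chst2 rose (19.1, 23, 27.9 and 24.7 CPM in knockout, and 12.7 to 18.8 CPM in controls; log2 0.71 ± 0.14, adjusted p = 0.0039), and B3gnt3 fell (56.9, 51.1, 54.2 and 37.3 CPM in knockout, and 70.5 to 114 CPM in controls; log2 −0.87 ± 0.17, adjusted p = 0.0038), both without overlap. Chst9 had 0.303, 0.834, 1.55 and 0.408 CPM in knockout and 0 counts in all 6 control libraries, a pooled level at least 36.1-fold higher with 3 counts over the control group as the floor (adjusted p = 0.0183). Galnt12 fell, with overlap (log2 −0.82 ± 0.22, adjusted p = 0.0372), and its call was lost in 6 of 16 alternatives (highest adjusted p = 0.149).

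In DU at D0.5, 8 of 72 members tested were called (4 higher, 4 lower), against 8.06% of all genes (3.89% higher, 4.17% lower). Of 9 epithelial markers 2 were called lower in knockout DU. Called higher were 3 of 4 gland, 3 of 8 stromal, 3 of 6 smooth muscle and 4 of 7 neutrophil markers. Their part in the member counts of DU was not tested. St3gal6 was again higher, with 47.1, 51.1 and 34.5 CPM in knockout and 26.3, 21.3, 22.8 and 21.4 CPM in controls (log2 0.94 ± 0.15, adjusted p = 0.00227). Chst8 was lower, with 3.31, 2.22 and 0 CPM in knockout and 23.6, 15.9, 9.86 and 12.7 CPM in controls (log2 −3.08 ± 0.80, adjusted p = 0.0337). Neither gene overlapped between the groups. B3gnt8, B3gnt3 and St6galnac1 fell and Galnt5, Fut8 and St6galnac6 rose. St3gal6 was the only one of the 6 named DU members at D0.5 whose call held under all alternatives, and the count of called members was 3 without control mouse 5 or knockout mouse 25 and 4 without knockout mouse 27.

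At D3.5 no member was called in U (0 of 74 by edgeR, with 8 at an unadjusted p under 0.05; 1 by DESeq2 and 8 by limma voom), against 0.0185% of all genes. Without knockout mouse 33, 2 members were called lower, against 0.693% of all genes (0.26% higher, 0.433% lower). St6galnac5 had 2.08, 1.56, 1.7 and 0.486 CPM in the other 4 knockout libraries and 8.39 CPM in mouse 33, against 4.64, 9.67, 11, 7.91 and 5.93 CPM in controls (log2 −2.44, adjusted p = 0.00414 without mouse 33). Fut2 had 10.5, 15, 14.3 and 13.4 CPM in the other 4 knockout libraries and 24.6 CPM in mouse 33, against 25.5, 22.5, 33.6, 36.8 and 50.9 CPM in controls (log2 −1.35, adjusted p = 0.00951 without mouse 33). In both genes mouse 33 lay inside the control range and the other 4 lay below it. In DU at D3.5, 1 of 72 members was called, against 0.574% of all genes (0.117% higher, 0.457% lower). St6galnac5 had 1.96, 2.15 and 1.45 CPM in knockout and 6.62, 12.4 and 7.47 CPM in controls, without overlap (log2 −2.26 ± 0.33, adjusted p = 0.00669), a call lost on TPM values (adjusted p = 0.061).

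The difference of the knockout effects between D3.5 and D0.5 was called for 2 members in U (Chst2, log2 −1.0 ± 0.20, adjusted p = 0.0129; St3gal4, log2 −0.95 ± 0.23, adjusted p = 0.0474), against 1.43% of all genes (0.943% higher, 0.487% lower). In DU it was called for 2 other members (Fut8, log2 −1.16 ± 0.22, adjusted p = 0.0184; St6galnac5, log2 −2.11 ± 0.43, adjusted p = 0.026), against 1.88% of all genes (0.945% higher, 0.932% lower). None of these 4 calls held in every alternative: that of St3gal4 was lost in 21 of 26 (highest adjusted p = 0.914), that of St6galnac5 in 9 of 19 (0.692), that of Fut8 in 3 of 19 (0.389) and that of Chst2 in 1 of 26 (0.578). Day changes were broader. Knockout U changed in 30 of 74 members (14 higher, 16 lower at D3.5), against 25.5% of all genes (10.9% higher, 14.6% lower), and control U in 38 (20 higher, 18 lower), against 34.2% (16.2% higher, 18% lower). Knockout DU changed in 33 of 72 members (14 higher, 19 lower), against 30.2% of all genes (12.9% higher, 17.3% lower), and control DU in 38 (20 higher, 18 lower), against 34.4% (15.9% higher, 18.5% lower). Fut2, Fut9, Galnt3 and Galnt6 fell in U in both genotypes. Fut2 averaged 15.6 CPM at D3.5 and 205 CPM at D0.5 in knockout U (log2 −3.72 ± 0.28), and 33.9 CPM at D3.5 and 237 CPM at D0.5 in control U (log2 −2.81 ± 0.26), with no overlap between days in either genotype.

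LE differed from U in 59 of 75 members tested (25 higher, 34 lower in LE), against 65.8% of all genes (31% higher, 34.7% lower). Most families held members of both directions: 7 Galnt genes were higher and 6 lower in LE of 16 tested, 3 Gcnt genes higher and 1 lower of 5, 4 Fut genes higher and 3 lower of 8, 3 Chst genes higher and 8 lower of 13, 1 St3gal gene higher and 4 lower of 6, and 2 St6galnac genes higher and 4 lower of 6. Gcnt1, Gcnt2 and Gcnt3 were higher in LE by 2.23 ± 0.17, 1.70 ± 0.11 and 2.64 ± 0.20 on the log2 scale, and Gcnt4 was lower (−1.34 ± 0.25). Fut2 and Fut9 were higher by 1.96 ± 0.16 and 2.19 ± 0.18, and St6galnac2, Galnt12 and B3gnt7 by 1.74 ± 0.11, 1.71 ± 0.10 and 1.86 ± 0.14. Galnt16 was lower in LE by 7.67 ± 0.33 on the log2 scale, Chst14, the dermatan 4-O-sulfotransferase, by 1.94 ± 0.14, and St8sia4 by 3.12 ± 0.23 (adjusted p = 4.71e-23, 3.98e-16 and 9.01e-16 in that order). St3gal4, which rose in knockout LE at D0.5, was not called between LE and U as a mean over the 4 groups (log2 −0.25 ± 0.15). It was called with limma voom and on TPM values. In controls at D0.5 it had 1.06 to 7.16 CPM in LE and 17.7 to 35.7 CPM in U, each scaled within its tissue. In the other groups the ranges of LE and U overlapped. Each tissue went through RNA isolation in its own batch, and the effect of tissue and that of the batch cannot be told apart. Blocking on the mouse, over animals with both tissues, left 54 members called (21 higher, 33 lower in LE; 29.9% and 35.8% of all genes).

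**Figure D5:**
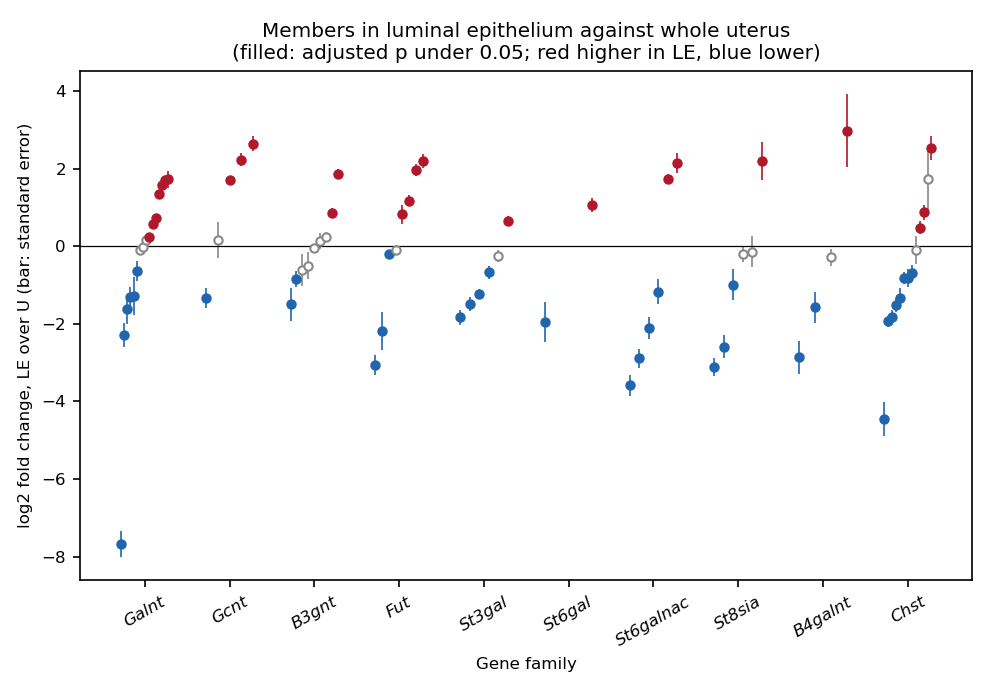
Log2 fold change of luminal epithelium (LE) over undigested uterus (U) with standard error on the y axis, for the 75 members tested, by gene family on the x axis. Filled red points were higher and filled blue points lower in LE at an adjusted p under 0.05; Galnt16, at −7.67, is the lowest point.

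Between DU and U no member was called without pairing (0 of 74 by edgeR, against 0% of all genes; 9 members at an unadjusted p under 0.05 and 5 called by limma voom). Blocking on the mouse, over animals with both tissues, 23 members were called (13 higher, 10 lower in DU), against 42.6% of all genes (19.5% higher, 23.2% lower). The changes were small: the rises lay between 0.14 and 0.89 and the falls between −0.68 and −0.21 on the log2 scale. St8sia1 rose (0.68 ± 0.14, adjusted p = 0.00363) and B4galnt1 fell (−0.38 ± 0.08, adjusted p = 0.00403) with the smallest adjusted p. For DU and U too, the effect of tissue and that of the RNA isolation batch cannot be told apart.

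Genes that supply donors, build the underlying chains or remove sugars were counted in LE from lists of the pathway. At D0.5, where 10.9% of all genes rose and 12.6% fell, 7 of 14 glycan-removing enzymes tested fell and none rose, among them Fuca1, a lysosomal fucosidase (129 to 173 CPM in knockout and 250 to 494 CPM in controls, log2 −1.31 ± 0.14, adjusted p = 1.22e-07), Glb1, a galactosidase (34.6 to 80.1 CPM in knockout and 89.9 to 225 CPM in controls, log2 −1.72 ± 0.20, adjusted p = 8.36e-07), and Hexa, a hexosaminidase. The groups did not overlap in any of these 3. Of 20 galactose and branching enzymes, 2 rose and 6 fell. Mgat3, which adds the bisecting GlcNAc of N-glycans, had means of 42.6 CPM in knockout and 8.75 CPM in controls (log2 2.29 ± 0.38, adjusted p = 6.72e-05), B3galt5 fell (log2 −2.08 ± 0.40, adjusted p = 0.00032), and C1galt1, the core 1 synthase, fell (log2 −0.79 ± 0.16, adjusted p = 0.000478). Gne, the rate-limiting enzyme of sialic acid synthesis, rose (18.7 to 33.1 CPM in knockout and 9.08 to 23.3 CPM in controls, log2 0.62 ± 0.21, adjusted p = 0.0327) as 1 of 5 sialic acid donor genes, and none of 5 fucose donor genes was called. Papss1, which makes the sulfate donor, rose and Slc35b2, which carries it into the Golgi, fell among 5 tested. Of 11 glycoprotein carriers Cd24a (log2 −2.11 ± 0.22, adjusted p = 1.53e-07) and Lgals3bp fell, and the lectin Lgals9 fell.

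At D3.5, where 7.79% of all genes rose and 5.7% fell, Gne was again the single called sialic acid donor gene (29.8 to 71.3 CPM in knockout and 9.9 to 22.4 CPM in controls, without overlap, log2 1.41 ± 0.28, adjusted p = 0.00116). Papss1 and Bpnt2 rose among 5 sulfate donor genes, Slc35d1 and Gnpnat1 fell among 9 hexosamine donor genes, and again none of 5 fucose donor genes was called. Of 20 galactose and branching enzymes 1 rose and 3 fell, with B4galt6 at 49.6 to 103 CPM in knockout and 177 to 383 CPM in controls (log2 −1.80 ± 0.28, adjusted p = 7.37e-05). Of 14 removal enzymes Sulf2, Hexa and Fuca1 fell and the sialidase Neu3 rose. Among 11 carriers the mucins Muc4 (58.5 to 142 CPM in knockout and 3.36 to 24.5 CPM in controls, log2 2.57 ± 0.42, adjusted p = 0.00013) and Muc20 (6.06 to 56.8 CPM in knockout and 0.349 to 1.75 CPM in controls, log2 4.57 ± 0.64, adjusted p = 1.85e-05) rose without overlap. Lgals3 was the only called lectin of 9 tested (log2 0.95, adjusted p = 0.0152).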

How the data were processed

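RNA-seq of LE, DU and U pieces was deposited by the authors as 2 gene tables. Values were made with kallisto 0.46.1 on GRCm39, per the submitters' processing notes; no further step is stated. The authors' deposited estimated counts per gene were rounded to whole numbers, and the authors' deposited TPM values were used for levels between genes and for 1 alternative. Each tissue's 4 groups were fitted together with edgeR 4.0.16 (quasi-likelihood test, TMM scaling, filterByExpr with a minimum count of 10 and total of 15) in R 4.3.3. LE against U and DU against U were fitted over both tissues. An adjusted p (Benjamini-Hochberg over all genes tested) under 0.05 is a call, and CPM are TMM-scaled. Replicates are separate mice, and no library pair was a duplicate.

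The tables hold 15601 tested genes in LE, 16232 in U and 16194 in DU, and the range of totals limits precision for genes of a few CPM. Counting intervals are exact binomial at 95% and cover counting error only. Named members were, per LE genotype comparison, up to 12 called members with an absolute log2 change of at least 1 in order of adjusted p, and up to 6 per other comparison; other members are given where a family is described, and up to 3 genes per pathway list. The members, lists, rules and alternatives were chosen with earlier results of these data known. Alternatives were DESeq2 1.42.0 (size factors, and its own test), no filter, limma 3.58.1 (voom with sample weights, and log2(TPM + 1) over genes with a mean of at least 1 TPM), other samples in the fit, and libraries left out. Tissue samples of the same number come from the same mouse: the median correlation of their deviations was 0.268 over 17 mice for LE and U and 0.335 over 13 mice for DU and U. On simulated counts for LE at D0.5, 61% of 100 genes changed by 1 on the log2 scale were called, and for LE at D3.5, 42% of 100. Promoter windows and exon overlaps are on GRCm38, not the build of the tables, and serve only as sequence and annotation. In GENCODE M21, exons of 31 members overlap another gene's exons, 14 of them a protein-coding gene's, and since no source used here states the counting strand, their counts are uncertain; of those 14, B3gnt4, B3gnt8, B4galnt1, Galnt4, Galnt5, Galnt11, St3gal6 and St6galnac5 are named in the results. Some genes of the pathway lists are not reported here.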

Additional observations from a re-analysis of the deposited data

Results flagged for a closer look

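Single libraries stood apart from the rest of their group in 8 of 80 gene and group pairs examined in LE (20 members in 4 groups). How many such pairs chance alone would give for skewed counts was not tested. For Chst8 in mouse 14 and Chst9 in mouse 9 every other library of the group had 0 CPM, where any count stands apart. In knockout LE at D0.5, mouse 27 had 0.349 CPM of Chst8. In control LE at D3.5, mouse 14 had 0.275 CPM of Chst8 and mouse 11 had 1.57 CPM of St8sia6. In control LE at D0.5, mouse 1 had 28.7 CPM of St6gal1 and 2.64 CPM of Chst15, mouse 2 had 0.519 CPM of St6galnac5, mouse 3 had 0 CPM of B4galnt4, and mouse 9 had 0.0634 CPM of Chst9, a single count.

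The knockout effect differed between D3.5 and D0.5 by the test of the difference itself in 19 members of LE. Beside the values already given for St3gal4 (−4.01), Chst2 (−4.26), Chst8 (6.37), B3gnt3 (2.25), Galnt12 (1.38) and B3gnt5 (−2.88), the log2 differences above 0 were 8.03 for B4galnt4, 4.49 for St6galnac3, 3.98 for B3gnt8, 3.02 for St8sia3, 2.82 for B4galnt1 and 1.66 for Chst7. Those below 0 were −5.15 for St8sia5, −3.74 for Chst9, −3.11 for St8sia4, −2.81 for Gcnt4, −1.14 for Galnt18, −0.94 for Galnt7 and −0.82 for Galnt11. In U the difference was −1.0 for Chst2 and −0.95 for St3gal4, and in DU it was −1.16 for Fut8 and −2.11 for St6galnac5. Fitted values of B4galnt4, Chst8 and Chst9 rest on groups with few or no counts and are no bounds.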

How the results depend on the processing

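Of 89 named calls over all comparisons, 68 held in every alternative that tested them and 21 were lost in some, and none changed sign. For LE at D3.5, knockout against control, the 21 called members became 12 with limma voom, 13 with only the groups compared and 12 without mice 35, 36 and 37. The 19 of the LE difference between days became 31 with all 12 groups fitted. In U the 6 at D0.5 became 16 with voom and 2 with only the groups compared, the 0 at D3.5 became 1 with DESeq2 and 8 with voom, and the 2 of the difference became 1 without a filter, 4 with DESeq2, 6 with voom and 1 with all 12 groups. In DU the 8 at D0.5 became 2 with only the groups compared, the 1 at D3.5 became 3 with DESeq2, 6 with voom, 0 on TPM and 3 with only the groups compared, and the 2 of the difference became 4 with DESeq2, 4 with voom, 1 on TPM and 0 with all 12 groups. DU against U moved from 0 to 5 with voom and 23 with the mouse as a replicate block, and LE against U from 59 to 54 with the block. The cause of these moves was not tested.

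Leaving out 1 library at a time gave 23 to 28 called members in LE at D0.5, 15 to 22 in LE at D3.5, 34 to 38 and 36 to 47 for the day change in knockout and in control LE, and 17 to 22 for the LE difference. In U it gave 5 to 8 at D0.5, 0 to 2 at D3.5 (2 without knockout mouse 33), 26 to 29 and 32 to 38 for the day change in knockout and in control, and 1 to 3 for the difference. In DU it gave 3 to 8 at D0.5 (5 without control mouse 9 or knockout mouse 26), 1 to 1 at D3.5, 23 to 28 and 30 to 42 for the day change in knockout and in control, and 0 to 4 for the difference (0 without control mouse 14 or knockout mouse 34, 4 without control mouse 1). Leaving out 1 mouse gave 57 to 61 for LE against U and 0 to 0 for DU against U. On TPM values the median of all genes moved by 0.42 in the LE knockout day change and 0.36 in the LE difference (log2).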
